A study of Mus musculus with 3 samples.

Results

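The 9 genes described here are the insulin and insulin-like growth factor (IGF) receptors Igf1r, Igf2r and Insr, the receptor substrates Irs1 and Irs2, and the IGF binding proteins Igfbp2, Igfbp3, Igfbp4 and Igfbp5, taken by name from a table of 22976 genes. They were measured in 2 libraries of NSC-34 clones that had become resistant to PR20 spontaneously, each library from 1 clone, and in 1 library of untreated wild-type NSC-34 cells, called the control. According to the labels the clones were kept in 10 µM PR20 over 3 weeks. The control is called untreated because its own treatment entry says none, although the general treatment text with PR20 stands beside each of the 3 samples. The NSC-34 line is a mouse hybrid from a fusion of neuroblastoma with embryonic spinal cord cells enriched for motor neurons, and PR20 is a peptide of proline and arginine repeats of the kind translated from the expanded C9ORF72 repeat. All cells were grown on gelatin in medium with fetal bovine serum, and whether the clones came from separate cultures is not stated, so that errors between the clones may reflect technical spread alone. The 9 genes were chosen by their counts in the clones and the control, with the difference between them known, and no p-value is printed for that difference. Whether a member was called in the fit over all genes is given as a description of these libraries only, since the calls rest on the counts that chose the genes.

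Insulin, IGF1 and IGF2 act through the receptor tyrosine kinases encoded by Insr and Igf1r, which form homodimers and hybrids and phosphorylate the docking proteins IRS1 and IRS2. These recruit PI3-kinase, which leads to activation of AKT and to growth, glucose uptake and survival of neurons and neuroblastoma cells. IGF2R has no kinase and carries IGF2 and lysosomal enzymes tagged with mannose phosphate to lysosomes, while the secreted binding proteins hold IGFs outside the cell and can limit or prolong their access to the receptor.

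The clone libraries held 11389663 and 11307034 gene counts and the control library 11700755. Levels are given as CPM, counts scaled to library size and TMM factor, where 3 counts stood for 0.267 and 0.269 CPM in the clones and 0.249 CPM in the control. Of 11362 genes with at least 50 reads over both clones, 12.96% differed between the clones beyond 95% counting error, against the 5% that counting error alone gives, and the clones were kept as separate libraries. Of the motor neuron markers that define the labelled cell type, 5 were measured, and their sums were 2.40 and 1.89 CPM in the clones, against 16.1 CPM in the control. Chat and Lhx3 had no read in either clone, against 7 and 1 reads in the control, and Mnx1 had at most 3 reads in any library. All 7 sympathetic and neuroblastoma markers were lower in the clones, with sums of 597 and 522 CPM in the clones and 1019.8 CPM in the control. Leukocyte markers summed to at most 1.60 CPM and glial markers to at most 7.48 CPM in any library, and endothelial markers to 15.7 and 17.6 CPM in the clones, against 31.9 CPM in the control. Fibroblast markers summed to 79.6 and 98.3 CPM in the clones and 79.3 CPM in the control. The part of these shifts in the results below was not tested, and in bulk RNA fewer cells of a kind and less RNA per cell cannot be told apart.

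The stretches of 250 bases before a RefSeq start (GRCm38.p6) of 4 members are shown. Igf1r had the largest change, and Igfbp2 the largest among the binding proteins that passed. Irs1 and Irs2 are a pair of related substrates. Capitals mark GC boxes (GGGCGG), E-boxes (CACGTG) and a core of insulin response elements (TGTTTTG), each searched on both strands.
Igf1r, chr7:67952007-67952256, plus strand: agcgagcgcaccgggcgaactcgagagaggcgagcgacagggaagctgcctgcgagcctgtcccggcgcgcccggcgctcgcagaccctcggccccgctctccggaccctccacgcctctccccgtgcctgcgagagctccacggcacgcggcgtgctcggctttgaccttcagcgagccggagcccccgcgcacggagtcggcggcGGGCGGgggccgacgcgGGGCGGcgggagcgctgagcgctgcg
Irs1, chr1:82291440-82291689, minus strand: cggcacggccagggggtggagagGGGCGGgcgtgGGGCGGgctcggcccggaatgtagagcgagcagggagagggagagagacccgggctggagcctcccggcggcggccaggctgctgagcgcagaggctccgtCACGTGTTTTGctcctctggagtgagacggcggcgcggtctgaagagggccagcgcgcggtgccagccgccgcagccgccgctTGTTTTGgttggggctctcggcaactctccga
Irs2, chr8:11008930-11009179, minus strand: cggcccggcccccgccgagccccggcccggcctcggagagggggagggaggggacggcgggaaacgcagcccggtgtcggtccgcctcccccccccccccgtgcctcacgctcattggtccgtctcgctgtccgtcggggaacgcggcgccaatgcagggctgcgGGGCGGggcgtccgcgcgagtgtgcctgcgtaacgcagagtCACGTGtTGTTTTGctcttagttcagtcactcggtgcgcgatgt
Igfbp2, chr1:72824230-72824479, plus strand: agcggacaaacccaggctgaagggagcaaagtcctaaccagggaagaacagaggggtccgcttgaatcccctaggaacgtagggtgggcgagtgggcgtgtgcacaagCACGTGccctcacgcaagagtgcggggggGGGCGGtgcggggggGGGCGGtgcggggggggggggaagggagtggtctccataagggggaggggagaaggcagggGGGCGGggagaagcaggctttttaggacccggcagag

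RefSeq promoters were matched for 8 of the 9 genes. Igfbp2 had a further RefSeq start, whose stretch (chr1:72825137-72825386) is not shown. That stretch held 56.4% G or C, 11 CpG pairs and no match of the marked motifs. In the Igf1r stretch 77.6% of bases were G or C, with 42 CpG pairs and 2 GC boxes, against a median of 52.4% and 6 CpG pairs over 32851 promoter stretches of the same length. The Irs1 and Irs2 stretches each held an E-box beside a TGTTTTG match on either strand. In Irs2 the E-box spanned bases 44 to 39 before the start and TGTTTTG bases 37 to 31, with 1 base between them, and in Irs1 the E-box spanned bases 115 to 110 and TGTTTTG bases 111 to 105, so that the matches overlapped by 2 bases. Over all promoter stretches 6.02% held CACGTG, 5.56% held TGTTTTG and 32.7% held GGGCGG. The E-box was added to the search after the sequences were read. The FOXO core TGTTTAC, present in 3.17% of all stretches, was not among the letters of the stretches of the 8 genes.

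Igf1r was 2.60-fold higher in the clones, Igfbp2 1.65-fold and Irs2 1.37-fold higher. Igfbp3, at 11 to 18 reads a library, and Irs1 had fitted folds of 1.70 and 1.28 and were not called. Insr and Igfbp4 lay at most 1.15-fold above the control in either clone, and Igf2r and Igfbp5 lay below it. All 9 genes passed the filter on low counts, with at least 11 reads in every library. In edgeR's quasi-likelihood fit over all 13705 tested genes, 4 of the 9 (Igf1r, Irs2, Igfbp2 and Insr) were called higher in the clones at an adjusted p under 0.05, where 24.3% of all tested genes were called higher. In that fit 0 members were called lower, where 25.8% of all tested genes were, with 1 (Igf2r) lower at an unadjusted p under 0.05 and 0 called lower by DESeq2. Igf2r was called lower in 2 other edgeR fits, a robust one and one that kept genes averaging 1 CPM or more. The median log2 fold change of the 9 genes was 0.36, against 0.002 over all tested genes.

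**Figure D1:**
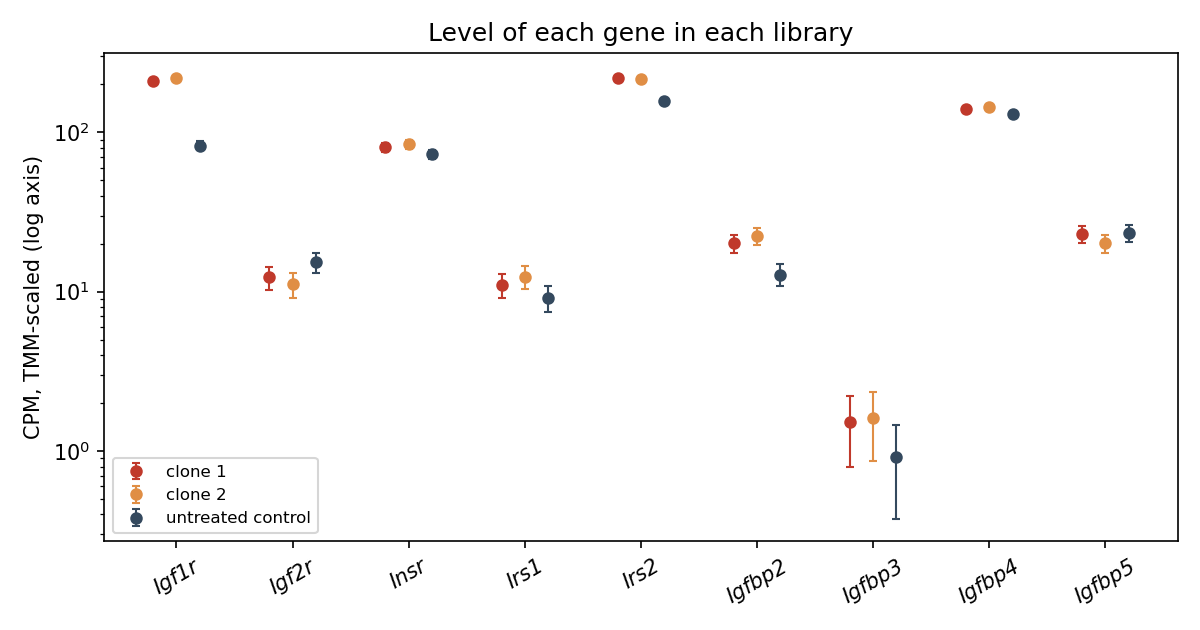
TMM-scaled CPM (log axis) of the 9 genes in clone 1, clone 2 and the untreated control, with bars for 95% counting error. The points of both clones lie near each other for every gene, and Igf1r shows the widest gap to the control, at 209.9 and 219 CPM in the clones and 82.5 CPM in the control.

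Among the receptors, Igf1r (ENSMUSG00000005533.10; GRCm38 chromosome 7, 67952827 to 68233668, plus strand), the IGF receptor kinase, had 2360 reads in clone 1 and 2443 in clone 2, against 993 in the control. Scaled by TMM factors, these were 209.9 and 219 CPM in the clones and 82.5 CPM in the control. Both clones lay far above the control and close to each other. The fitted log2 fold change was 1.38 ± 0.06 (SE), and 1.34% of tested genes had a higher one. Counting intervals (95%, exact) of the ratio to the control ran from 2.36 to 2.74 for clone 1 and from 2.47 to 2.86 for clone 2. The authors' deposited table gives a log2 fold change of 1.37 with a standard error of 0.118 for Igf1r.

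Insr (ENSMUSG00000005534.10; chromosome 8, 3122061 to 3279617, minus strand), the insulin receptor gene, stood at 80.7 CPM in clone 1 and 83.8 CPM in clone 2, against 72.7 CPM in the control. Both clones lay slightly above the control, with a log2 fold change of 0.18 ± 0.07 (SE). Its call was lost with DESeq2, with RLE size factors, with the legacy quasi-likelihood fit, with limma-voom, with no filter on low counts and with a preset variation of 10% or 20%. Igf2r (ENSMUSG00000023830.13; chromosome 17, 12682406 to 12769664, minus strand), the lysosomal sorting and IGF2 clearance receptor, stood at 12.3 and 11.1 CPM in the clones, against 15.3 CPM in the control. Both clones lay below the control, but the log2 fold change of -0.39 ± 0.16 (SE) did not pass, and the counting interval of the clone 1 ratio, 0.639 to 1.01, held 1. With a mean CPM of at least 1 as the filter, or with a robust fit, Igf2r was called lower. The annotation places the antisense transcript Airn, which was higher in the clones, over the start of Igf2r. Which strand the authors counted is unknown here, so that reads of both may be mixed there.

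The substrate Irs2 (ENSMUSG00000038894.7; chromosome 8, 10984681 to 11008458, minus strand) had 2449 and 2400 reads in the clones, against 1900 in the control, or 218 and 215 CPM against 158 CPM. Both clones lay above the control by more than they differed from each other, with a log2 fold change of 0.46 ± 0.06 (SE). The authors' deposited table gives 0.45 with a standard error of 0.107 for Irs2. Irs1 (ENSMUSG00000055980.2; chromosome 1, 82233101 to 82291416, minus strand), the other widely expressed substrate, stood at 11.03 and 12.4 CPM in the clones, against 9.14 CPM in the control. Its log2 fold change of 0.36 ± 0.18 (SE) did not pass, with both clones above the control. With preset variations of 10% and 20% the call of Irs2 was lost.

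Among the binding proteins, Igfbp2 (ENSMUSG00000039323.18; chromosome 1, 72824503 to 72852474, plus strand), a carrier of IGF1 and IGF2, had 226 and 248 reads in the clones, against 154 in the control. These were 20.1 and 22.3 CPM in the clones and 12.8 CPM in the control, a log2 fold change of 0.73 ± 0.14 (SE). The call of Igfbp2 was lost with DESeq2 and with a preset variation of 20%. Igfbp3 (ENSMUSG00000020427.11; chromosome 11, 7206086 to 7213923, minus strand), the main IGF carrier of serum, had 17 and 18 reads in the clones and 11 in the control. Its ratio to the control had counting intervals from 0.731 to 3.91 in clone 1 and from 0.791 to 4.14 in clone 2, so that a difference was not detectable at this depth.

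Igfbp4 (ENSMUSG00000017493.12; chromosome 11, 99041244 to 99054392, plus strand), a binding protein that is cleaved by pappalysins, stood at 139.7 and 144 CPM in the clones, against 129.6 CPM in the control. The clones lay within 1.11-fold of the control, and the log2 fold change of 0.13 ± 0.06 (SE) did not pass. Igfbp5 (ENSMUSG00000026185.8; chromosome 1, 72857932 to 72874884, minus strand), which also binds extracellular matrix, stood at 23.0 and 20.1 CPM in the clones, against 23.4 CPM in the control. Its log2 fold change of -0.11 ± 0.13 (SE) was smaller than its standard error.

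**Figure D2:**
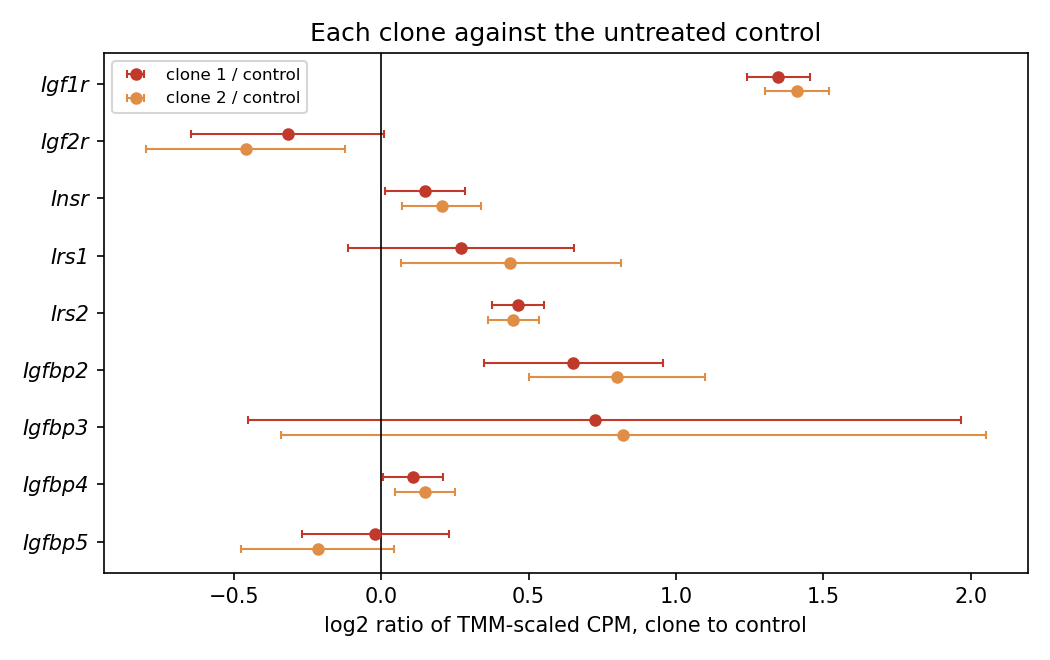
Log2 ratio of TMM-scaled CPM of clone 1 and of clone 2 to the untreated control for the 9 genes, with 95% counting intervals. In 5 genes (Igf1r, Insr, Irs2, Igfbp2 and Igfbp4) the intervals of both clones lie above 0, and in no gene do both lie below 0. Igfbp4 was not called, and both ratios share the single control library. By level alone, both clones lay above the control in 7 of the 9 genes, against 44.0% of all tested genes. Both lay below it in 2 of the 9, against 44.5% of all tested genes.

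No difference between the clones beyond counting error was seen in the 9 genes. The log2 ratio of clone 2 to clone 1 ran from -0.20 for Igfbp5 to 0.17 for Irs1, and the counting interval of the ratio held 1 in each of the 9 genes. Of all genes with at least 50 reads over both clones, 12.96% differed beyond counting error, so that most genes were alike in this way. For Igfbp3, with 17 and 18 reads, the interval ran from 0.520 to 2.21, too wide to show likeness. Of the 9 genes, 0 were past 1.5-fold between the clones, where 8.19% of all tested genes were, and 9 genes are too few to set these apart. With 1 library for each clone there is no replicate check of these ratios.

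Per length of merged exons, the order of the levels in the clones was Irs2 at 34.3 ± 0.267, Igfbp4 at 32.1 ± 0.623, Igf1r at 12.8 ± 0.395, Igfbp2 at 11.5 ± 0.827 and Insr at 5.98 ± 0.163 CPM per kb (SD, n = 2). Below these came Igfbp5 at 3.59 ± 0.345, Irs1 at 1.28 ± 0.105, Igf2r at 1.26 ± 0.0869 and Igfbp3 at 0.4997 ± 0.0234 CPM per kb (SD, n = 2). Irs1 and Igf2r did not differ beyond their spread, and their order was opposite in the clones. In the control the order was Igfbp4 at 29.4, Irs2 at 24.97, Igfbp2 at 6.93, Insr at 5.29, Igf1r at 4.91, Igfbp5 at 3.89, Igf2r at 1.64, Irs1 at 0.9997 and Igfbp3 at 0.292 CPM per kb. By these values Igf1r stood above Igfbp2 and Insr in both clones and below them in the control. The counting interval of Igf1r per Insr in the control, 0.847 to 1.02, held 1. No interval was computed for Igf1r per Igfbp2, so that their order may lie within counting error. With the longest transcript as the length, Igfbp4 at 37.0 CPM per kb stood above Irs2 at 34.3 in the clones.

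Ratios of genes within a library do not depend on the scaling between libraries. There were 2.13 Igf1r reads per Insr read in clone 1 and 2.14 in clone 2, corrected for length, against 0.929 in the control. The control's counting interval, 0.847 to 1.02, held 1, and that of clone 1 began at 1.97. Igf1r exceeded Igf2r 9.48-fold and 10.9-fold per length in the clones, against 2.99-fold in the control. The ratio of Irs2 to Irs1 was 28.6 and 25.2 in the clones and 24.98 in the control, with counting intervals that overlapped. Igfbp4 reads per Igfbp2 read, corrected for length, were 2.91 and 2.70 in the clones, against 4.24 in the control, with intervals of the clones that ended below the start of the control's. Igfbp4 made up 67.5% and 67.1% of the summed level per length of the 4 binding proteins in the clones, against 72.5% in the control. This sum leaves out Igfbp6 and Igfbp7, treated below, so that it is not the share among all binding proteins measured. The merged exons of Igfbp6 and Igfbp7, of 1112 and 1209 bases, are shorter than the 4416 of Igfbp4. Per length, Igfbp7 stood above Igfbp4 in each library. With Igfbp6 and Igfbp7 added to the sum, the share of Igfbp4 was higher in the clones than in the control, the opposite direction. Igfbp6 stood at 14.5 CPM in the clones and 28.8 CPM in the control, and Igfbp7 at 48.6 and 63.9 CPM.

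**Figure D3:**
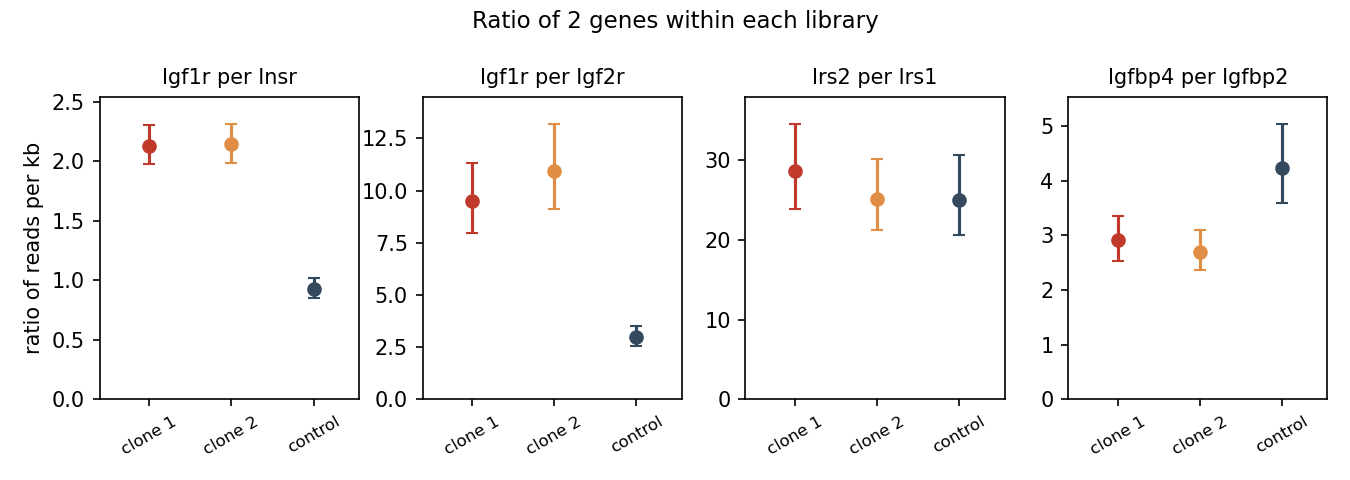
Ratio of reads per kb of a pair of genes within clone 1, clone 2 and the control, with 95% counting intervals and axes that start at 0. Igf1r per Insr is 2.13 and 2.14 in the clones and 0.929 in the control, while Irs2 per Irs1 has overlapping intervals in all 3 libraries.

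The genes lie on chromosomes 1, 7, 8, 11 and 17. Of 1069 tested genes on chromosome 7, which carries Igf1r, 42.7% were called higher in the clones, against 24.3% of all tested genes, and their median log2 fold change was 0.26. Igf1r lay 1.12 above the chromosome median on the log2 scale. The medians of the other 4 chromosomes ran from -0.02 on chromosome 1 to 0.12 on chromosome 17, where Igf2r differed from the median by -0.51. The part of the shift of chromosome 7 in the Igf1r value was not tested. Within 500 kb of Igf1r, 5 genes were tested, of which 1 was called higher and 1 lower. The nearest on either side were Ttc23, 189914 bases away, with a log2 fold change of 2.02 (called higher), and Pgpep1l, 2941 bases away, with 0.68 (not called). Beside Igf2r, Gm16574 (49128 bases away, 4.33) was called higher and 4732491K20Rik (355155 bases, 0.21) was not called. Beside Insr, Arhgef18 (113388 bases, 0.36) was called higher, and beside Irs1, Rhbdd1 (25035 bases, -0.06) was not called, while Dock10 (1474573 bases, -2.82) was called lower. Irs2 lay between 3930402G23Rik (55984 bases, -0.68, not called) and Gm15418 (179296 bases, -1.64, called lower). No gene within 500 kb of Igfbp3 was tested. The nearest tested ones were Tbrg4 (580018 bases, 0.18, not called) and Hus1 (1779213 bases, 0.44, called higher). Igfbp4 lay between Top2a (17054 bases, 0.77), called higher, and Smarce1 (154654 bases, -0.15), called lower. The outer neighbours of Igfbp2 and Igfbp5 were Rpl37a (110689 bases, 0.20, called higher) and C530043A13Rik (647210 bases, -1.64, called lower). Values without a unit in these brackets are log2 fold changes. Igfbp2 and Igfbp5 are neighbours transcribed towards each other with 5457 bases between them, and only Igfbp2 of the pair was called; the difference between the pair was not tested.

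**Figure D4:**
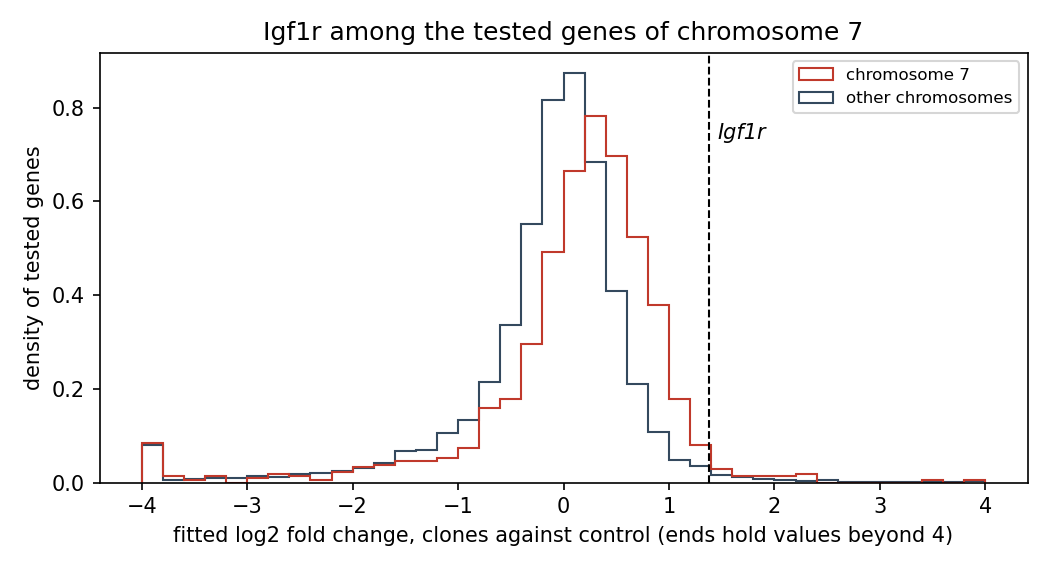
Density of fitted log2 fold changes of the clones against the control for tested genes on chromosome 7 and on other chromosomes, with Igf1r as a dashed line. The genes of chromosome 7 are shifted to higher values, with a median of 0.26, and Igf1r lies at 1.38.

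The genes whose pattern over the 3 libraries was most like that of Igf1r, by Euclidean distance between the log2 ratios of both clones to the control over 10135 genes that averaged 5 CPM or more, were Fcgrt at a distance of 0.0135, Egln3 at 0.0555 and Egr1 at 0.0567. Both ratios share the single control, so that a small distance means a similar fold only. Fcgrt, which encodes a receptor for IgG and lies on chromosome 7 like Igf1r, stood at 25.7 and 26.9 CPM in the clones, against 10.1 CPM in the control. Egln3, an oxygen-sensing hydroxylase gene, stood at 436 and 432 CPM, against 167 CPM in the control. Egr1, an immediate early transcription factor gene, stood at 214 and 221 CPM, against 86.1 CPM in the control.

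The other genes of the pathway came from 10 lists of 73 genes, of which 67 were analysed here and 61 passed the filter on low counts. Of these 61, 21 rose and 16 fell in the clones (edgeR, adjusted p under 0.05), a share of 60.7% where 50.1% of all tested genes were called in either direction. The median log2 fold change was 0.07, against 0.002 over all tested genes. As the lists were chosen with earlier results of these data known, the share called and the p-values below describe these libraries only. On chromosome 7, 5 of 7 tested pathway genes rose, where 42.7% of all tested genes of that chromosome were called higher. Off it 16 rose and 16 fell of 54. Over all tested genes 24.3% were called higher and 25.8% lower, which is the background for the counts of each list below. With a preset variation of 20% 0 rose (2 at an unadjusted p under 0.05; DESeq2 called 13), and without a filter on low counts no pathway gene and no member was called.

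The ligand genes were near the floor of detection. Igf1 had 2 reads in each clone and 1 in the control, and Igf2 had no read in either clone and 5 in the control. Neither passed the filter. Of the other binding protein genes, Igfbp6, which prefers IGF2, had 179 and 146 reads in the clones, against 347 in the control, and fell to 14.5 ± 1.99 CPM in the clones (SD, n = 2), against 28.8 CPM in the control (log2 fold change -0.99; edgeR adjusted p = 1.56e-05). Igfbp7, a distant relative with weak IGF binding, stood at 48.6 ± 5.18 CPM in the clones and 63.9 CPM in the control (log2 fold change -0.40, edgeR adjusted p = 0.00173). Its call was lost with DESeq2 and with preset variations of 10% and 20%. Igfbp7 overlaps with Polr2b on the opposite strand, which had 2932 and 2908 reads in the clones, against 3440 in the control. Igfals, which stabilises the serum complex, had 4 reads in each clone and 2 in the control. Igfbp6 and Igfbp7 were thus called lower in edgeR's fit, where Igfbp2 was called higher, but DESeq2 called neither Igfbp7 nor Igfbp2. With a preset variation of 20%, Igfbp6, Igfbp7 and Igfbp2 all lost their calls.

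The stanniocalcins, secreted inhibitors of the pappalysin proteases that cleave Igfbp4 protein, both fell. Stc2 stood at 31.2 and 25.7 CPM in the clones, against 78.8 CPM in the control (log2 fold change -1.47; edgeR adjusted p = 4.80e-09). Stc1 had 6 and 8 reads in the clones, against 40 in the control (log2 fold change -2.39; edgeR adjusted p = 0.000266), a call lost with DESeq2. Furin, the convertase on chromosome 7 that cleaves the proreceptors of insulin and IGF1, rose to 223.9 ± 12.7 CPM in the clones (SD, n = 2), against 161 CPM in the control (edgeR adjusted p = 1.08e-05). Nedd4, a ubiquitin ligase gene, rose by 0.25 on the log2 scale (edgeR adjusted p = 0.000376). The call of Nedd4 was lost with preset variations of 10% and 20%.

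Of 7 genes that tag lysosomal enzymes with mannose phosphate or sort them, as Igf2r does, 1 rose and 1 fell. Gnptg, a subunit of the phosphotransferase that begins the tag, had 236 and 210 reads in the clones, against 1155 in the control. Its log2 fold change was -2.27 with an SE of 0.09 (edgeR adjusted p = 6.65e-12), the lowest among the lists apart from those of Stc1 and Grb14. Gnptg overlaps at one end with Unkl on the opposite strand, and Unkl was higher in the clones (log2 fold change 0.73). Gga3, an adaptor of sorting, rose by 0.28 on the log2 scale (edgeR adjusted p = 0.00649). The call of Gga3 was lost with DESeq2 and with preset variations of 10% and 20%. Gga3 overlaps with Mrps7 on the opposite strand (786 and 788 reads in the clones, 746 in the control).

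Among 8 adaptor genes 2 rose and 2 fell. Sh2b1, an adaptor of insulin and cytokine receptors on chromosome 7, rose to 118.9 ± 4.73 CPM in the clones (SD, n = 2), against 85.8 CPM in the control (log2 fold change 0.47; edgeR adjusted p = 2.64e-05). Grb2, the link from receptors to RAS, fell by 0.28 on the log2 scale (edgeR adjusted p = 0.00140). The call of Grb2 was lost with DESeq2 and with preset variations of 10% and 20%. Gab1 had 5 reads in clone 1 and 1 in clone 2, against 12 in the control. Its call was lost with DESeq2, RLE size factors, limma-voom and 5 further settings, and its log2 fold change was -3.33 without clone 1 and -1.15 without clone 2.

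Of 14 genes that restrain the receptors or PI3-kinase signalling, 4 rose and 3 fell. Inppl1, the phosphatase gene SHIP2 on chromosome 7, rose to 402 and 395 CPM in the clones, against 208 CPM in the control (log2 fold change 0.94; edgeR adjusted p = 8.69e-10). Inppl1 overlaps at one end with Phox2a on the opposite strand, and Phox2a was lower in the clones. Enpp1, a membrane protein that binds the insulin receptor, rose to 79.6 and 81.1 CPM, against 49.2 CPM in the control (log2 fold change 0.71; edgeR adjusted p = 1.25e-06). Trib3, a pseudokinase gene that restrains AKT, rose to 112 and 110.1 CPM, against 72.0 CPM in the control (log2 fold change 0.63; edgeR adjusted p = 1.29e-06). Grb14, an inhibitor of the insulin receptor, is named after its values were seen, and it had 2 reads in clone 1 and none in clone 2, against 45 in the control.

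Of 10 genes of PI3-kinase and AKT, 5 rose and 3 fell. Akt2, the AKT isoform of insulin action on chromosome 7, stood at 117 and 116 CPM in the clones, against 65.2 CPM in the control (log2 fold change 0.84; edgeR adjusted p = 5.42e-08). Akt1 rose to 312 and 300.4 CPM, against 219 CPM in the control (log2 fold change 0.48; edgeR adjusted p = 2.46e-06). Pik3r3, a regulatory subunit of PI3-kinase that binds IRS proteins, fell to 32.1 and 27.1 CPM, against 57.0 CPM in the control (log2 fold change -0.94; edgeR adjusted p = 1.11e-06).

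Of 12 genes of the mTOR complexes and their regulators, 6 rose and 1 fell. Deptor, an mTOR inhibitor gene, fell to 50.3 and 46.6 CPM in the clones, against 130.8 CPM in the control (log2 fold change -1.43; edgeR adjusted p = 1.37e-10). Rptor, the scaffold of the first mTOR complex, rose to 137 and 142 CPM, against 97.2 CPM in the control (edgeR adjusted p = 4.90e-06). Tsc2, an upstream brake on mTOR, rose by 0.46 on the log2 scale (edgeR adjusted p = 7.68e-06), and it overlaps at one end with Pkd1 on the opposite strand, which was higher in the clones at 248 and 227 CPM, against 92.6 CPM in the control. Of 4 FOXO and GSK3 genes, Gsk3a on chromosome 7 rose by 0.50 on the log2 scale (edgeR adjusted p = 5.08e-06), while Gsk3b fell by 0.30 (edgeR adjusted p = 0.000634) and the FOXO gene Foxo3 fell by 0.28 (edgeR adjusted p = 0.00280). The calls of Gsk3b and Foxo3 were lost with DESeq2 and with preset variations of 10% and 20%. Gsk3a overlaps with the antisense gene 9130221H12Rik, which had 226 and 229 reads in the clones, against 133 in the control.

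**Figure D5:**
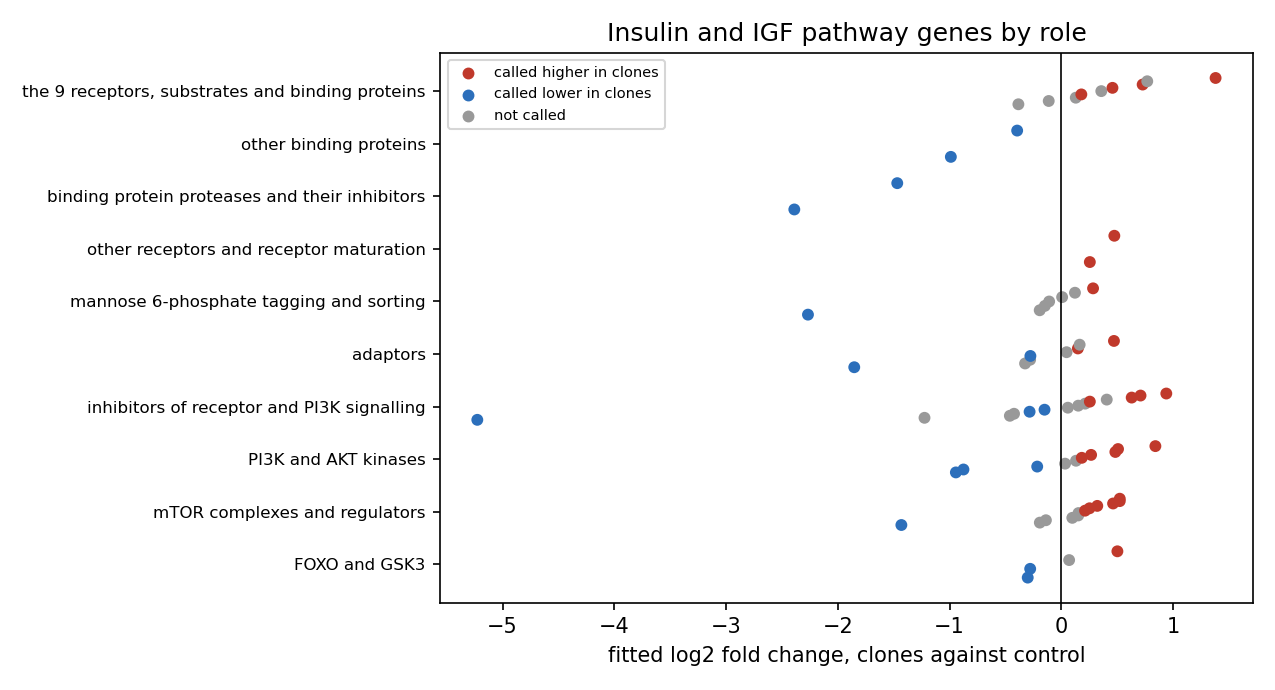
Fitted log2 fold change of the clones against the control for the 9 genes (top row, given as a description) and for 61 other pathway genes by role, coloured by the edgeR call. The stanniocalcins and Gnptg lie far to the left in their rows, and the leftmost point is Grb14, which had 2 reads in clone 1, none in clone 2 and 45 in the control.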

How the data were processed

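Per the labels' protocols, the library kit selects mRNA and keeps strand. The deposited raw counts are whole reads per gene from STAR's gene counting, per the file headers, which name STAR 2.5, Gencode M16 (Ensembl 91) and GRCm38/mm10; the submitters' processing notes name STAR 2.5.3. The sources used here do not give the strand setting. The deposited RPM values, reads scaled to mapped library size per the file headers, were used only to check the counts. The authors' table, made with DESeq2 per the file headers, gives a log2 fold change, its standard error, a p-value and an adjusted p-value.

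The tools were edgeR 4.0.16, DESeq2 1.42.0 and limma 3.58.1, run under R 4.3.3. Counts of 13705 genes that passed filterByExpr were scaled with TMM and tested between 2 clones and 1 control with edgeR's quasi-likelihood F test (legacy option off, two-sided, Benjamini-Hochberg at 0.05). Only the clones are replicated, which leaves 1 residual degree of freedom; edgeR moderates the spread over genes. The standard error is the fold change over the square root of F. Log2 ratios used a prior count of 1. Counting intervals are exact binomial ones and cover counting error only. Exon lengths and positions came from Gencode M21 on GRCm38. The script was also run on simulated counts drawn with the variation fitted to these libraries. That run cannot cover the unmeasured variation of the single control. The members and lists were chosen with earlier results of these data known. Named are the members, up to 3 called genes with the lowest p per list, the ligands and other binding proteins, 3 genes most like Igf1r and nearest neighbours. Genes named for overlaps, Airn, Gm16574 and Grb14 were chosen after their values were seen. The alternatives were DESeq2, RLE factors, other filters, other fits, preset variations, a prior count of 5, leaving out each clone and transcript length. Igfbp1, Ins1, Ins2, Irs4, Pappa and Pappa2 were not analysed here.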

Additional observations from a re-analysis of the deposited data

How the results depend on the processing

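With DESeq2, 3037 genes were called (1578 higher and 1459 lower), with 2 members called, both higher, and 20 pathway genes (13 higher and 7 lower). With a preset variation of 10%, 3617 genes were called (1436 and 2181), with 2 members, both higher, and 21 pathway genes (12 and 9). With a preset variation of 20%, 1148 genes were called (156 and 992), with 1 member, Igf1r, which was higher, and 5 pathway genes (0 higher and 5 lower). Without a filter on low counts, 4 of 22976 genes were called (0 higher and 4 lower), with 0 members and 0 pathway genes, although 4 members and 33 pathway genes had an unadjusted p under 0.05. With a mean CPM of at least 1 and with the robust fit, 1 member, Igf2r, was called lower. The cause of these differences was not tested. RLE size factors, the legacy fit and limma-voom kept each of these counts within 1.5 times. No fold change of a member changed sign under any alternative, and of the 23 called pathway genes that the naming rule gives, 22 were called with RLE size factors, limma-voom and each other quasi-likelihood setting on filtered counts, 17 with a preset variation of 10%, 16 with DESeq2 and 4 with 20%. Grb14, named outside that rule, was called lower in each of these settings and lost its call without a filter on low counts. With one clone left out, the fold changes are values without a test. No paired analysis was possible because the control has 1 library and no shared replicate number. The single control limits all comparisons, since its own variation is not measured.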

Other observations

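The antisense transcript over the start of Igf2r was higher in the clones. Airn (chromosome 17, 12741311 to 12860136), the long noncoding antisense RNA known in mouse for silencing the paternal Igf2r allele, had 122 and 129 reads in the clones, against 45 in the control (log2 fold change 1.58 ± 0.23, SE; edgeR adjusted p = 2.80e-05). Gm16574, which lies within the Airn interval and 49128 bases from Igf2r, had 17 and 25 reads in the clones, against 1 in the control. Igf2r itself had 138 and 124 reads in the clones, against 184 in the control, and did not pass. The files hold no allele information, and these genes were picked after their values were seen.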
